A study of Homo sapiens with 4 samples.

Results

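Genes of the mitochondrial ribosome were followed in Hs683 cells, an established human glioma line, after miR-20a was added to cells in which QK had been knocked down. Members were all genes whose single current symbol begins with MRPL or MRPS and a number, each read by its probe set (a group of short probes for the same transcript) with the highest mean over the arrays. The rule matched 75 of the 17716 genes on the arrays. Of these, MRPL20-AS1, an antisense RNA, and MRPL45P2, a pseudogene, encode no ribosomal protein and were set aside, which left 73 genes, 47 named for the large and 26 for the small subunit. Both groups carried the QK knockdown (QK is now named QKI and encodes an RNA-binding protein). The groups differed in the transduced microRNA, which was miR-20a on 2 arrays and a scrambled sequence with no intended target (miR-NT) on the other 2. Total RNA was measured on 4 Affymetrix arrays, and values are on a log2 scale, so that a difference of 1 is a doubling. The labels do not say whether replicates were separate cultures, so the spread between them may be technical, and no cells without the knockdown were analysed here.

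Mitochondria translate the few proteins encoded by their own DNA, all of them subunits of the respiratory chain and ATP synthase, on ribosomes of their own. The RNAs of these ribosomes come from mitochondrial DNA, whereas every protein of the large (MRPL) and small (MRPS) subunit is encoded in the nucleus, made in the cytosol and imported. Many of these proteins descend from the bacterial ancestor and surround the sites of decoding and peptide bond formation, while others are found only in mitochondria and lie mostly at the surface of the particle. The microRNA that separated the groups recognises targets through its seed, the stretch near its 5′ end. The mature sequence of miR-20a (RefSeq, GRCh38.p14, chr13:91351072-91351094, plus strand) is shown with the seed, bases 2 to 8, in capitals.
hsa-miR-20a-5p: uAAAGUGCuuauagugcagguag

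Vimentin (VIM) and CD44, which mark mesenchymal-type glioma cells, measured 14.02 to 14.32 and 10.08 to 11.24 over the arrays. The glial and neural progenitor markers GFAP, S100B, NES and OLIG2, in contrast, lay among the dimmest 30% of genes. CD44 was at −0.87 (SE 0.15, limma adjusted p = 0.0949), SOX2 at −0.12 (SE 0.12), PDGFRA at 0.37 (SE 0.09) and CSPG4 at 0.36 (SE 0.12) as log2 fold changes with miR-20a. As dim were 2 of 4 measured immune, 3 of 4 endothelial and 2 of 4 epithelial markers, with the epithelial keratin KRT18 at 12.54 to 12.73. QKI itself was 0.73 lower with miR-20a (SE 0.16, limma adjusted p = 0.106). The control probe set at the 5′ end of ACTB can reflect RNA or labelling quality, but also the amount of ACTB RNA itself. It measured 12.78 and 12.66 under miR-NT, against 11.59 and 10.43 under miR-20a. The 5′ control of GAPDH measured 13.89, 13.81, 13.17 and 12.30 in the same order. These signals moved with the groups, and their part in the differences between groups was not tested. An array value cannot tell less RNA per cell from fewer cells that make it.

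The mitochondrial ribosome genes split between slightly lower and slightly higher values with miR-20a, and none passed the test over all genes. Of the 73 genes, 66 were bright enough to be tested (45 large, 21 small). The other 7, MRPL19, MRPL23, MRPS11, MRPS14, MRPS18C, MRPS25 and MRPS31, were among the dimmest 30% of all genes and were not tested. Of these, values are given below for MRPS18C only. In the fit with limma over 12401 genes, 41 of the 66 members had a log2 fold change (miR-20a minus miR-NT) below 0 and 24 above, with a median of −0.07. The remaining member, MRPL24, had equal group means (a difference under 1e-08 was taken as 0). Over all tested genes 53.7% were below 0, and the median was −0.02. The extremes among the members were −0.68 for MRPL30 and 0.39 for MRPL38, so that no member differed by 2-fold in either direction. Changes of at least 0.25 were seen in 11 members with lower and 7 with higher values, or 16.7% and 10.6% of the members, where the shares over all genes were 15.4% and 6.12%.

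At an adjusted p under 0.05 (limma, Benjamini-Hochberg), 0 members were lower, where the share over all genes was 0.00806%, and 0 were higher, where it was 0%. At an unadjusted p under 0.05, 8 members were lower and 6 were higher. These are 12.1% and 9.09% of the members, beside 13.2% and 5.82% of all tested genes. The groups did not overlap, with miR-20a lower, in 21 members, and with miR-20a higher in 16, or 31.8% and 24.2%, beside 31.1% and 25.1% of all genes. The shares of lower values were thus close to the background in both counts. When replicate 1 of miR-20a was left out, 15 members passed, 13 of them lower, in a fit where 15.1% of all genes passed. The lower ones were MRPL2, MRPL4, MRPL9, MRPL10, MRPL13, MRPL15, MRPL18, MRPL30, MRPL34, MRPL43, MRPS7, MRPS12 and MRPS15, and the higher ones MRPL38 and MRPL41. Without replicate 2 of miR-20a, MRPL30 was at −0.63 and MRPS12 at −0.50. In that fit 31 of the 66 members lay below 0, beside 52.8% of all genes. Such fits take the spread of the miR-20a group from the miR-NT pair.

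**Figure D1:**
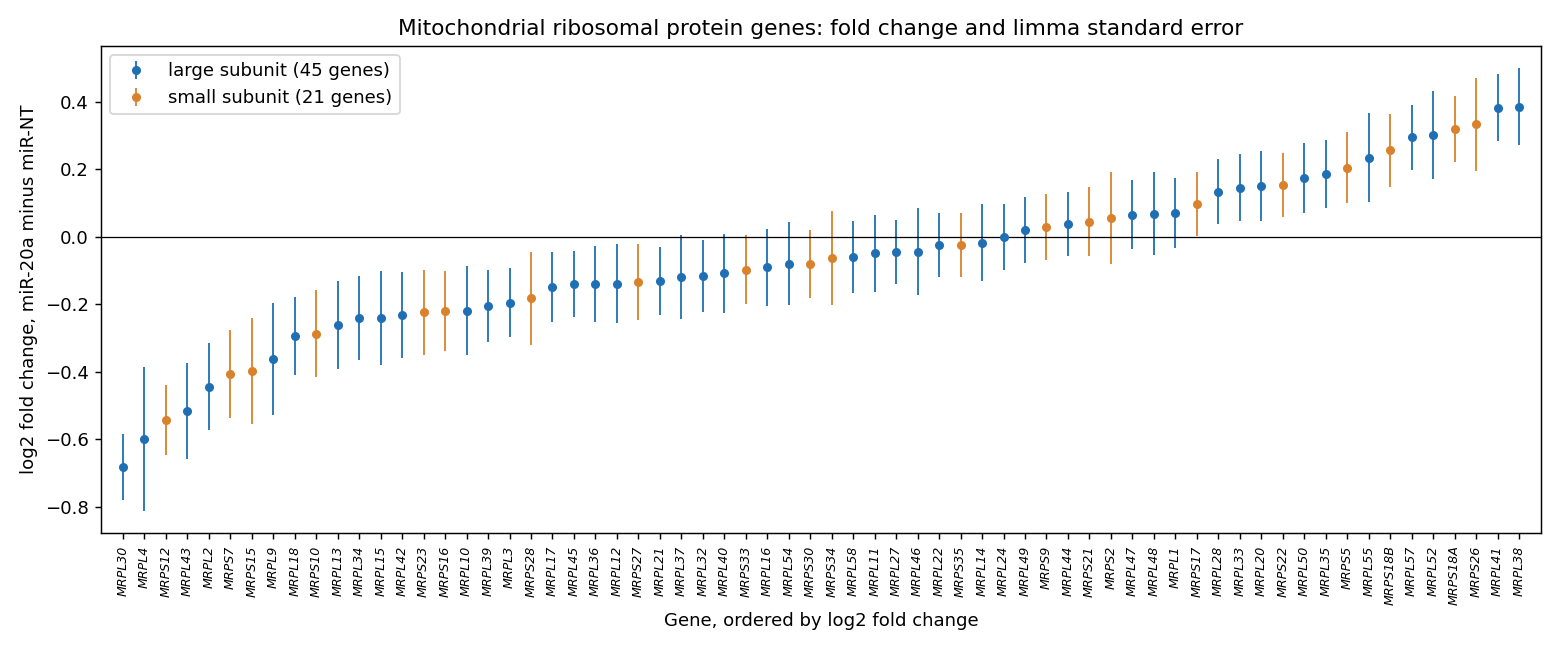
Log2 fold change (miR-20a minus miR-NT, vertical axis) of the 66 tested genes in rank order, blue for the large and orange for the small subunit, with bars for the standard error of the limma fit. Values run from −0.68 for MRPL30 to 0.39 for MRPL38, both subunits are spread over the whole range, and 41 genes lie below 0.

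The subunits did not stand apart from each other. In the large subunit 29 of the 45 tested genes lay below 0, and the median was −0.08. In the small subunit 12 of 21 did, and the median was −0.06. The large minus small difference of the medians was −0.02, and lay between −0.04 and 0.03 with an array left out. Between replicate arrays the median level had an SD of 0.07 for the large subunit and 0.15 for the small. Shifts between arrays that both subunits share add to these SDs, so they do not measure the spread of the difference. Median levels of the large subunit were 9.66 and 9.62 under miR-NT, against 9.72 and 9.57 under miR-20a. For the small subunit they were 10.10 and 9.94 under miR-NT, against 10.11 and 9.87 under miR-20a. The ranges of the groups thus overlapped for both subunits. MRPS30 and MRPS18A carry small-subunit names but sit in the large subunit of the human ribosome, and moving them left the medians at −0.08 and −0.06.

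The medians followed the choice of arrays and the scaling. After quantile normalization they were 0.01 (large) and 0.04 (small), where that of all genes was 0.03, and 37 of the 66 members lay above 0. After adjusting for the ACTB 5′ control they were 0.20 and 0.14, beside 0.05 for all genes, and 57 members lay above 0. The control itself moved with the groups, so that fit separates the control from the groups only weakly. For the 12 lowest members its SE was 0.25, beside 0.10 to 0.21 as reported. Values of single genes after this adjustment are thus imprecise, and their signs are uncertain. The large-subunit median was −0.03 without miR-NT replicate 1, −0.15 without miR-NT replicate 2, −0.15 when replicate 1 of miR-20a was dropped and 0.01 when its replicate 2 was. That of the small subunit was −0.02, −0.14, −0.12 and −0.01 in the same order. Replicate 2 was the lower array of the pair in 55 of 66 members within miR-NT and in 55 within miR-20a, beside 66.5% and 58.9% of all genes. Of the 41 members below 0, 5 stayed below 0 in each of the 12 alternative ways of processing that tested them. The 5 were MRPL3, MRPL21, MRPL30, MRPS10 and MRPS12. Of the 24 above 0, 17 stayed above. Many of the other lower members changed sign only with the ACTB 5′ adjustment, which put 57 of the 66 members above 0. These counts therefore do not show that higher values held better than lower ones. The matching shares of all genes are not given here.

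**Figure D2:**
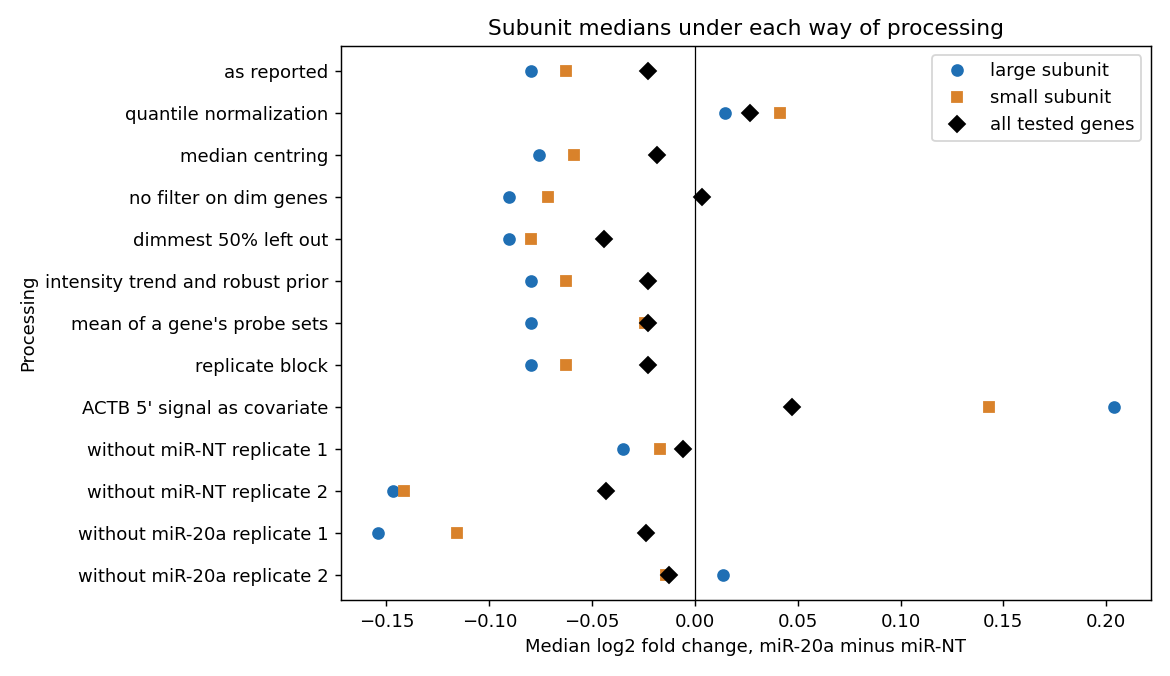
Median log2 fold change (miR-20a minus miR-NT, horizontal axis) of the large subunit (blue circles), the small subunit (orange squares) and all tested genes (black diamonds) under each way of processing. Both subunit medians lie below 0 as reported (−0.08 and −0.06) and above 0 after quantile normalization and after adjusting for the ACTB 5′ control, where they are 0.20 and 0.14.

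The members were also divided into proteins with a bacterial counterpart and proteins particular to mitochondria. They were sorted by the unified naming of ribosomal proteins, with MRPS30 and MRPS18A placed in the large subunit. In the large subunit, 20 of 28 tested genes with a counterpart were below 0 (median −0.12), and at an unadjusted p under 0.05 4 were lower and 0 higher (limma). Among the 19 without one, 10 were below 0 (median −0.04), and 1 was lower and 4 higher. In the small subunit, 6 of 11 genes with a counterpart were below 0 (median −0.18), 3 being lower and 0 higher at that p, and of the 8 without one 0 were lower and 2 higher (median −0.04). Over all tested genes 13.2% were lower and 5.82% higher at that p, so that the 4 of 28 lower large-subunit genes (14.3%) lay near the background, while the shares of the smaller classes rest on at most 4 genes each. MRPS18A and MRPS18B, which the naming counts as particular to mitochondria, are relatives of a bacterial protein, and both were among the higher values. After quantile normalization the medians with a counterpart were −0.01 (large) and −0.08 (small), and those without were 0.04 and 0.06. After adjusting for the ACTB 5′ control all 4 medians were above 0, at 0.16 and 0.14 with a counterpart and 0.25 and 0.16 without. The difference between the classes was not tested, since genes are not replicates.

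Among large-subunit proteins with a bacterial counterpart, MRPL30 had the lowest fold change of all members. It measured 6.58 and 6.60 under miR-NT, against 5.96 and 5.86 under miR-20a. The groups were far apart for the closeness of their replicates. The log2 fold change was −0.68 (SE 0.10), 1.6-fold lower, and did not pass over all genes (limma adjusted p = 0.0727). It ranged from −0.73 to −0.54 over the alternatives in which MRPL30 was tested, and was −0.73 and −0.63 without replicate 1 and replicate 2 of miR-20a. MRPL30 passed after median centring (limma adjusted p = 0.0493), in a fit where 0.379% of all genes passed. After adjusting for the ACTB 5′ control its limma adjusted p was 0.654.

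MRPL4, which lines the tunnel through which the new chain leaves, measured 9.30 and 8.91 under miR-NT, against 8.82 and 8.19 under miR-20a. The arrays were separate by group, but the replicates differed by more than the gap between the groups. Its log2 fold change was −0.60 (SE 0.21, limma adjusted p = 0.214) and −0.91 without miR-20a replicate 1. After adjusting for the ACTB 5′ control it was 0.37 (SE 0.25, limma adjusted p = 0.892). MRPL2, next to the centre of peptide bond formation, measured 8.02 and 8.02 under miR-NT, against 7.75 and 7.40 under miR-20a. It was thus lower on both miR-20a arrays, by −0.44 (SE 0.13, limma adjusted p = 0.164), and was at 0.06 after that adjustment. MRPL3, also near this centre, measured 11.71 and 11.60 under miR-NT, against 11.52 and 11.40 under miR-20a, a difference of −0.20 (SE 0.10) with no overlap between the groups.

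MRPL9 measured 9.27 and 9.02 under miR-NT, against 9.02 and 8.55 under miR-20a, where the nearest arrays of the groups almost touched (log2 fold change −0.36, SE 0.17). MRPL18, a protein of the central protuberance on top of the large subunit, measured 11.44 and 11.36 under miR-NT, against 11.24 and 10.98 under miR-20a (−0.29, SE 0.12). MRPL13 and MRPL34 were at −0.26 (SE 0.13) and −0.24 (SE 0.12), each with miR-20a replicate 2 clearly the lowest array. After adjusting for the ACTB 5′ control MRPL9, MRPL18, MRPL13 and MRPL34 were all above 0, at 0.36, 0.09, 0.25 and 0.22.

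The stalk, which brings translation factors to the ribosome, is built on MRPL10 and MRPL11 and carries copies of MRPL12. MRPL12 measured 10.97 and 10.82 under miR-NT, against 10.87 and 10.65 under miR-20a. MRPL10 measured 9.27 and 9.16 under miR-NT, against 9.17 and 8.83 under miR-20a. MRPL11 measured 10.0025 and 9.78 under miR-NT, against 9.91 and 9.78 under miR-20a. The groups overlapped in all 3, with log2 fold changes of −0.14 (SE 0.12), −0.22 (SE 0.13) and −0.05 (SE 0.11).

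On the side of higher values, MRPL20 measured 11.99 and 11.87 under miR-NT, against 12.14 and 12.03 under miR-20a, a log2 fold change of 0.15 (SE 0.10), and MRPL35 was at 0.19 (SE 0.10), both without overlap. MRPL55 was at 0.23 (SE 0.13), but its groups overlapped, and it was at −0.07 after adjusting for the ACTB 5′ control. MRPL32, with 11.75 and 11.56 in miR-NT and 11.56 and 11.52 in miR-20a, was at −0.12 (SE 0.11) and at 0.01 after quantile normalization.

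Large-subunit proteins that the naming counts as particular to mitochondria supplied the members with the highest fold changes. MRPL38, a protein of the central protuberance, measured 6.88 and 6.80 under miR-NT, against 7.11 and 7.34 under miR-20a. MRPL41 measured 5.84 and 5.91 under miR-NT, against 6.22 and 6.30 under miR-20a. Both were higher on both miR-20a arrays, by 0.39 (SE 0.11, limma adjusted p = 0.168) and 0.38 (SE 0.10, limma adjusted p = 0.138). They stayed above 0 in every alternative that tested them, coming as near 0 as 0.05 and 0.25 after adjusting for the ACTB 5′ control. MRPL41, MRPL44 and MRPS22, 3 of the 73 genes, are read by probe sets of the _x_at kind, which can bind related transcripts.

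MRPL57 measured 8.92 and 8.88 under miR-NT, against 9.23 and 9.16 under miR-20a, with close replicates and no overlap (0.30, SE 0.10). MRPL52 was also higher on both miR-20a arrays but with a wider spread, from 8.23 to 8.49 with miR-NT and from 8.54 to 8.78 with miR-20a (0.30, SE 0.13). MRPL50 was at 0.18 (SE 0.10). All 3 stayed above 0 in all 12 alternatives, from 0.26 to 0.40, 0.17 to 0.68 and 0.09 to 0.42.

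Other members of the same class had lower values, with MRPL43 lowest, at 9.01 and 8.90 under miR-NT, against 8.64 and 8.24 under miR-20a. MRPL43 was lower on both miR-20a arrays (−0.52, SE 0.14, limma adjusted p = 0.154), and was at 0.08 after adjusting for the ACTB 5′ control. MRPL42 and MRPL39 were also lower without overlap, at −0.23 (SE 0.13) and −0.20 (SE 0.11), as was MRPL45. MRPL45, which lies at the tunnel exit and holds the ribosome to the inner membrane, measured 9.37 and 9.33 under miR-NT, against 9.27 and 9.16 under miR-20a (−0.14, SE 0.10). MRPL58, a peptidyl-tRNA hydrolase built into the ribosome, measured 9.99 and 9.94 under miR-NT, against 10.0033 and 9.81 under miR-20a, so that the groups overlapped (−0.06, SE 0.11). MRPS30 overlapped as well, at −0.08 (SE 0.10).

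**Figure D3:**
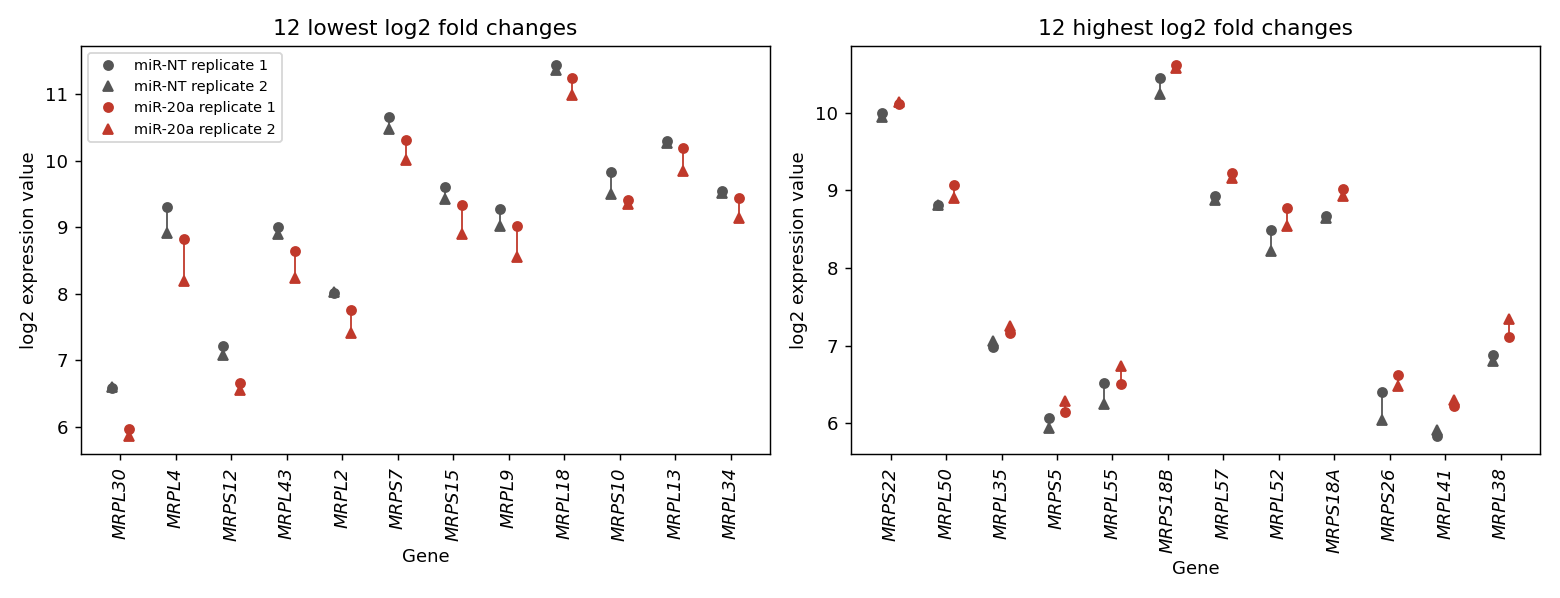
Log2 expression values (vertical axis) on each array for the 12 genes with the lowest (left) and the 12 with the highest (right) log2 fold change, gray for miR-NT and red for miR-20a, circles for replicate 1 and triangles for replicate 2, with lines that join replicates. The groups are separate in all 12 genes on the left, where MRPL30 lies at 6.58 and 6.60 against 5.96 and 5.86, and on the right in all but MRPL55. The genes were picked by fold change on these same arrays, so their separation was largely set by that choice. Over all tested genes the groups were separate in 31.1% with miR-20a lower and in 25.1% with miR-20a higher.

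In the small subunit, MRPS12, which forms part of the decoding site, had the lowest fold change. It measured 7.22 and 7.08 under miR-NT, against 6.65 and 6.56 under miR-20a, so that the gap between the groups was several times the difference between replicates. The log2 fold change was −0.54 (SE 0.10), 1.46-fold lower, with limma adjusted p = 0.0963 over all genes. It lay between −0.61 and −0.39 over all 12 alternatives. MRPS12 passed when either miR-20a array was left out (limma adjusted p = 0.00213 without replicate 1 and 0.0392 without replicate 2) and in no other alternative, where adjusted p went up to 0.883.

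MRPS7, which helps to fold the head of the small subunit, measured 10.65 and 10.47 under miR-NT, against 10.30 and 10.01 under miR-20a (−0.41, SE 0.13). MRPS15 measured 9.61 and 9.42 under miR-NT, against 9.34 and 8.89 under miR-20a (−0.40, SE 0.16). Neither gene's groups overlapped, but after adjusting for the ACTB 5′ control they were at 0.05 and 0.29. MRPS10 measured 9.83 and 9.49 under miR-NT, against 9.40 and 9.35 under miR-20a. Its miR-NT arrays differed more than its groups did at their nearest (−0.29, SE 0.13), and without miR-NT replicate 1 the value was −0.12.

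The paralogues MRPS18A, MRPS18B and MRPS18C go back to the same bacterial protein. MRPS18A measured 8.67 and 8.64 under miR-NT, against 9.02 and 8.93 under miR-20a. MRPS18B measured 10.45 and 10.24 under miR-NT, against 10.62 and 10.58 under miR-20a. Both were higher on both miR-20a arrays, by 0.32 (SE 0.10, limma adjusted p = 0.171) and 0.26 (SE 0.11, limma adjusted p = 0.26), and stayed above 0 in all 12 alternatives. MRPS18C, at 4.31 and 4.51 under miR-NT, against 4.51 and 4.70 under miR-20a, was among the dim genes and was not tested.

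MRPS26 measured 6.40 and 6.04 under miR-NT, against 6.63 and 6.48 under miR-20a, where the miR-NT replicates differed more than the nearest arrays of the groups (0.33, SE 0.14). MRPS5, near the path of the messenger RNA, was at 0.21 (SE 0.11) and MRPS22 at 0.15 (SE 0.10). MRPS17 and MRPS33, whose probe sets gave high signals, were at 0.10 (SE 0.10) and −0.10 (SE 0.10). MRPS27 was the member with more than 1 probe set. The brighter was at −0.13 (SE 0.11), and the other, at 4.37 or less on every array, was higher by 0.14 with miR-20a.

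Other gene lists of mitochondrial translation were split in direction as well. In each list 0 genes passed over all genes. Of the ribosomal proteins under other symbols, PTCD3 was at −0.16, CHCHD1 at −0.13, DAP3 at −0.03 and GADD45GIP1 at 0.17. Of 19 tested factors of ribosome assembly and ribosomal RNA modification, 8 were below 0 and 11 above (median 0.07), with 2 lower and 2 higher (10.5% each) at an unadjusted p under 0.05, beside 13.2% and 5.82% of all genes. Among them were NSUN4, which acts on ribosomal RNA and in joining the subunits (−0.38, SE 0.10), its partner MTERF4 (0.28, SE 0.10), and DHX30, an RNA helicase (0.24, SE 0.10).

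The translation factors, at 6 below 0 and 7 above (median 0.02), held values of opposite sign among the factors of elongation. TSFM, which recharges the elongation factor TUFM, measured 5.53 and 5.56 under miR-NT, against 6.06 and 6.00 under miR-20a (0.48, SE 0.10, limma adjusted p = 0.0963). TUFM itself was at 0.31 (SE 0.10). GFM1, the factor that moves the ribosome along, measured 6.87 and 6.62 under miR-NT, against 6.21 and 5.63 under miR-20a (−0.82, SE 0.19, limma adjusted p = 0.117). TSFM and TUFM were thus higher and GFM1 lower on both miR-20a arrays. The 15 mitochondrial tRNA synthetases had a median of 0.06, with the ends of the list at −0.58 for RARS2 and 0.31 for FARS2. Genes of mitochondrial transcription and DNA upkeep had a median of 0.003 over 10 members. POLG, the mitochondrial DNA polymerase, had the lowest value there, from 6.59 and 6.67 with miR-NT to 6.00 and 5.62 with miR-20a (−0.82, SE 0.14, limma adjusted p = 0.0876).

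Import proteins had a median of −0.11 over 19 members, 12 below 0, with TOMM22 of the outer membrane at −0.53 (SE 0.12) and TIMM44 of the import motor at −0.51 (SE 0.15). Subunits of the respiratory chain and ATP synthase had a median of −0.09 over 67 tested genes, 45 of them below 0, close to the mitochondrial ribosome in both figures. Cytosolic ribosomal proteins had one of 0.03 over 43 genes, 20 below 0. These differences between groups of genes were not tested. After quantile normalization the medians were 0.001 for import, 0.02 for the respiratory chain, 0.09 for cytosolic and 0.04 for mitochondrial ribosomal proteins.

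**Figure D4:**
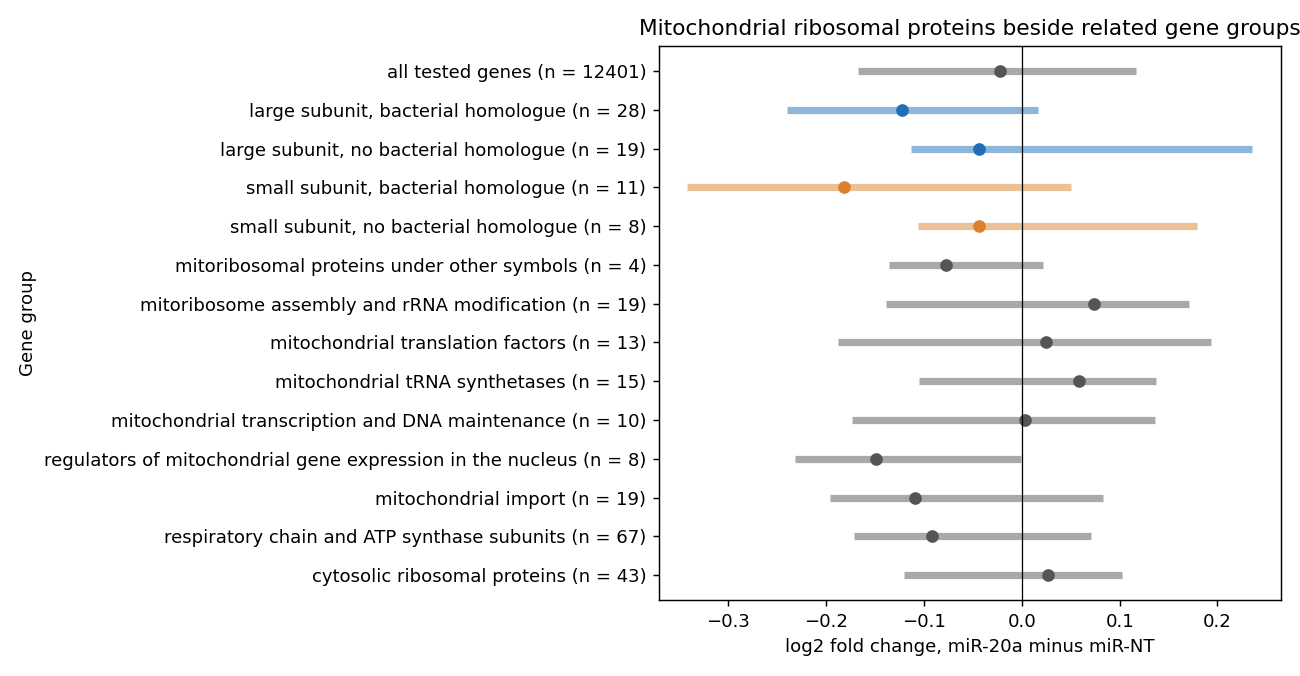
Median (dot) and middle 50% (bar) of the log2 fold changes (miR-20a minus miR-NT, horizontal axis) in each gene group, blue for the large and orange for the small subunit and gray for other groups, with the number of tested genes. The bars reach across 0 in all groups drawn but the nuclear regulators, and the median of the small-subunit genes with a bacterial counterpart lies lowest, at −0.18.

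Promoters are shown for the lowest and the highest gene of each subunit, so that the sequences before genes with opposite values can be set side by side. RefSeq starts were found for 65 of the 73 genes, and the first listed start was used for each (11 members had several). Each line gives the 250 bases before the start (GRCh38.p14), and capitals mark matches on either strand to GCGCATG (the core bound by NRF1), CCGGAAG (ETS factors such as GABP), AAGATGG (YY1) or GGGCGG (SP1).
MRPL30, chr2:99180934-99181183, plus strand: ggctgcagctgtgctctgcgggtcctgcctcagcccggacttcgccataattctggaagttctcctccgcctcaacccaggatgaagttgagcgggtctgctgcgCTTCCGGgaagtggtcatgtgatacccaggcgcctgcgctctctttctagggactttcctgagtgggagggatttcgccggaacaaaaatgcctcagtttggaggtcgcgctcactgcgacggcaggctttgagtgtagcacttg
MRPS12, chr19:38930694-38930943, plus strand: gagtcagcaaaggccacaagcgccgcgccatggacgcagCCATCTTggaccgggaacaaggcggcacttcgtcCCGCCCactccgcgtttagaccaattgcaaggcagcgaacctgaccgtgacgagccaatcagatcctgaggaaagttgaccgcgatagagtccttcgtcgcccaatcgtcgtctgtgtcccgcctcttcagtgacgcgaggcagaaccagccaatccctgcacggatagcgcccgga
MRPL38, chr17:75904885-75905134, minus strand: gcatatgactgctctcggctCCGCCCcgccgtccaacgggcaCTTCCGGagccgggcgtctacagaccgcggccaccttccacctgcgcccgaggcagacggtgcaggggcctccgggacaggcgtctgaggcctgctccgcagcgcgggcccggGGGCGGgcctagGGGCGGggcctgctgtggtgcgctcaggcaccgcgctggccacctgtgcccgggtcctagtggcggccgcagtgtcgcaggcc
MRPS26, chr20:3045802-3046051, plus strand: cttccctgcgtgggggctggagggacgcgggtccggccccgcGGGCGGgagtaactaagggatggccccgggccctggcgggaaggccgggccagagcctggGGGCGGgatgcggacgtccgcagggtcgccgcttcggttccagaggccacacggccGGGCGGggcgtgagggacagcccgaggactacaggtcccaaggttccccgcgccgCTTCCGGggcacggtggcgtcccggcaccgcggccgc

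The promoter of MRPL30 held 1 ETS motif, and that of MRPS12 held 1 YY1 and 1 SP1 motif. Those of MRPL38 and MRPS26 each held 1 ETS and 3 SP1 motifs, and the NRF1 core was in 0 of these 4 windows. Over the 65 members, the ETS motif was found in 21 promoters (32.3%), beside 14.4% of the 9938 promoters of tested genes and 8.82% of the 27305 genes in the table. The NRF1 core was found in 7 (10.8%, beside 5.69% and 3.96%). The SP1 motif was found in 35 (53.8%, beside 63% and 42.3%). The YY1 motif lay in the 250 bases before the start in 7 members (10.8%, beside 3.56% and 3.77%) and in the 50 bases after it in 14 (21.5%, beside 3.7% and 2.27%). In those 50 bases the ETS motif lay in 5 members (7.69%, beside 3.27% and 2.1%) and the SP1 motif in 4 (6.15%, beside 12% and 8.13%). The NRF1 core lay there in 0 (0%, beside 0.664% and 0.546%). The NRF1 and YY1 motifs were shortened after counts with longer forms had been seen, so their shares are descriptive only. Members with and without a motif before the start had median log2 fold changes of −0.05 and −0.06 for ETS, −0.01 and −0.06 for NRF1, and −0.06 and −0.04 for SP1. For YY1 they were −0.12 and −0.05 before the start and −0.05 and −0.06 after it. Of the factors themselves, NRF1 was at 0.09 (SE 0.10), YY1 at −0.26 (SE 0.09, limma adjusted p = 0.222) and the GABP subunit GABPB1 at −0.22 (SE 0.14), while GABPA and SP1 were too dim to be tested. In the list of 10 nuclear regulators to which they belong, 6 of the 8 tested were below 0 (median −0.15). MYC had the lowest value there, at −0.36 (SE 0.13, limma adjusted p = 0.222).

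Several members have a neighbour that starts close by and runs the other way. Within 1000 bases, 20 members had such a neighbour, and in 9 pairs both genes were tested. The log2 fold changes had the same sign in 4 pairs and opposite signs in 5. MITD1, whose start lies 126 bases from that of MRPL30, measured 8.70 and 8.52 under miR-NT, against 8.41 and 8.18 under miR-20a (−0.32, SE 0.12), in the same direction as MRPL30. SARS2, the mitochondrial seryl-tRNA synthetase, starts 181 bases from MRPS12, but measured 8.12 and 8.16 under miR-NT, against 8.20 and 8.27 under miR-20a (0.09, SE 0.10). It was thus slightly higher where MRPS12 was lower. MRPL57 (0.30) and SKA3 (−0.15), and MRPL27 (−0.05) and EME1 (0.37, SE 0.10), were also of opposite sign.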

How the data were processed

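The authors deposited 1 value per probe set and array for 20323 probe sets. The deposited values were log2 expression values, judged from their range. Per the submitters' processing notes, the authors used affy, an R package. For background correction, summarisation and normalization the method is not given in the sources used here. Probe sets with 1 gene symbol (18060) were named through the platform annotation and updated through RefSeq gene identifiers (18034 matched); the 886 with several symbols, among them those of MRPL51, MRPL53 and MRPS24, were left out. The dimmest 30% of the 17716 genes (5315) were dropped. The test was limma's (version 3.58.1, R 4.3.3; lmFit and eBayes, two-sided, no covariate), with Benjamini-Hochberg adjustment over 12401 genes and a threshold of 0.05. The number of arrays limits the precision: 2 residual and 5.53 prior degrees of freedom, and an exact permutation test of 2 against 2 arrays cannot go below p = 0.333. SE values are those of this fit.

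Groups came from the source names and replicate numbers from the titles. Members and lists were chosen with earlier results of these data known. Named members were the 12 lowest and 12 highest fold changes, the 3 brightest of each subunit, some fixed by role, and a gene whose probe sets differed in sign; up to 3 genes with the smallest p were named per list, and other list genes for their role. Alternatives were quantile normalization, median centring, 2 other filters, the mean of probe sets, a robust prior with an intensity trend, a replicate block, an adjustment for the ACTB 5′ control and each array left out. On simulated arrays of 12401 genes for this comparison (200 changed, 10 runs), 6.6% of changes of 0.5, 70.9% of 1 and 94.8% of 2 (log2) were recovered. The NRF1 and YY1 motifs were shortened after counts with longer forms had been seen.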

Additional observations from a re-analysis of the deposited data

How the results depend on the processing

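Over all genes, 1 passed in the reported fit, 6 after quantile normalization, 47 after median centring, 4 with the dimmest 50% left out, 24 with an intensity trend and a robust prior, 6 after adjusting for the ACTB 5′ control, 0 with the replicate number as a block (1024 higher and 2127 lower at an unadjusted p under 0.05, limma), and 0 to 1869 with an array left out. Of the mitochondrial ribosome genes, 0 passed except for 1 after median centring, and from 0 to 15 with an array left out. With an array left out the medians ranged from −0.15 to 0.0139 (large), −0.14 to −0.01 (small) and −0.04 to 0.03 (large minus small). The 3 medians moved beyond the spread between replicates, to 0.20, 0.14 and 0.0604, with the ACTB 5′ adjustment, and the large-subunit median also to 0.0149 after quantile normalization and to −0.15 and 0.0139 without replicate 1 and replicate 2 of miR-20a. The cause was not tested. The replicate numbers were not taken to pair the arrays: over 12401 genes the deviations of same-numbered arrays had r = 0.267, with 2 pairs, and 0 members passed with the replicate block. No group was large enough to look for single deviating arrays. Dim probe sets limit what can be said of 7 members. Some tested members at the extremes were also dimmer than most. In mean level MRPL30, MRPL41 and MRPS26 lay at percentiles 45.1, 41.65 and 47.71 of all genes, beside a median of 90.3 for tested members. These 3 were not tested with the dimmest 50% left out. Other extremes were brighter, such as MRPL4 at 81.33 and MRPL43 at 80.22.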
